A study of Mus musculus with 22 samples.

Results

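The unfolded protein response genes described here are 10 genes taken by symbol from the 47729 genes of the count tables. Hspa5, Hsp90b1 and Hyou1 encode chaperones of the endoplasmic reticulum (ER), Pdia4 a protein disulfide isomerase, and Dnajb9 and Sdf2l1 co-chaperones. Creld2 and Manf encode small proteins of the ER lumen, Herpud1 a membrane protein of ER-associated degradation, and Xbp1 a transcription factor. All 10 were found and all 10 passed the filter on low counts in every comparison. Their mRNA was sequenced from livers of male C57BL/6 mice in 6 groups of genotype and age, after poly(A) selection. Slc10a1 KO mice lack the sodium taurocholate cotransporting polypeptide, the carrier by which hepatocytes take up bile acids from the portal blood, and wild-type (WT) mice served as controls. There were 3 KO and 3 WT livers at 4 weeks, 6 KO and 4 WT at 8 weeks, and 3 KO and 3 WT at 20 months, 22 libraries in all. The labels name no treatment and do not say how the allele was made, whether mice shared litters or cages, or at what hour livers were taken. The p-values therefore measure the spread between these samples.

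Proteins that are secreted or inserted into membranes fold in the ER, and hepatocytes secrete most proteins of blood plasma. When unfolded proteins accumulate there, the chaperone BiP (the product of Hspa5) leaves the sensors IRE1, PERK and ATF6. IRE1 splices the Xbp1 mRNA to the form that makes an active factor, ATF6 is cut in the Golgi to a nuclear factor, and PERK slows translation and favours ATF4. XBP1 and ATF6 raise the genes of ER chaperones, folding enzymes and degradation factors through promoter elements such as ERSE. The counts here are per gene, so they do not separate the spliced from the unspliced Xbp1 mRNA.

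A library of 4 weeks had 5496425 to 6956124 counts assigned to genes. The depth was greater later on, with 18950112 to 26066897 counts for mice of 8 weeks and 18032355 to 26789350 for those of 20 months. The file names give paired reads at 4 weeks and unpaired reads at the other ages, so age and library type cannot be told apart. Levels are given in CPM, the count of a gene scaled to the depth of its library with TMM factors. Slc10a1 itself had no overlap between genotypes at any age, with all KO libraries on the low side and log2 fold changes of -1.93 at 4 weeks, -2.72 at 8 weeks and -1.49 at 20 months (SE 0.33, 0.16 and 0.32). It passed the test used for all genes at 4 and 8 weeks (adjusted p = 0.0117 and 9.00e-05 in edgeR) and at 20 months in DESeq2 (0.00902) but not in edgeR (0.821). Summed hepatocyte markers reached 60854 to 227754 CPM in the 22 libraries. Of the cell types with the heaviest secretory load, pancreas markers summed to 2.95 to 37.9 CPM with Prss1, Prss2, Try4, Try5 and Rnase1 at 0 counts in all libraries, and plasma and B cell markers summed to 144 to 620 CPM.

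Several libraries stood apart from their groups in other genes. KO libraries 3 and 4 of 8 weeks differed from the other 4 KO livers of that age, with a chi-square per degree of freedom of 214 to 452 against them and of 36.6 between themselves. Their hepatocyte markers summed to 108066 and 98378 CPM, against 172486 to 220020 CPM in the other 4 KO livers and 101118 to 115538 CPM in WT livers. Their macrophage markers summed to 450 and 436 CPM, against 888 to 1124 CPM in the other 4 KO livers and 475 to 637 CPM in WT livers, and their stellate cell markers to 423 and 571 CPM, against 874 to 1110 CPM and 473 to 655 CPM. Their Slc10a1 level, at 69.9 and 76.0 CPM, lay within the 49.2 to 93.3 CPM of the other 4 KO livers. At 4 weeks hepatocyte markers summed to 96358 CPM in KO library 1, against 227754 and 190757 CPM in KO libraries 2 and 3. Arntl, a clock gene, was at 47.6 CPM in KO library 1 and 40.9 CPM in WT library 1 at 4 weeks, and at 45.0 and 43.5 CPM in KO libraries 1 and 2 at 8 weeks. The other 18 libraries lay between 1.10 and 11.3 CPM. Saa1, an acute-phase gene, was at 157 to 258 CPM in the KO libraries of 20 months, against 46572, 22024 and 212 CPM in WT libraries 1, 2 and 3 of that age. Neutrophil markers summed to 9.77 to 23.5 CPM in KO livers of 20 months, and to 9.82 to 3894 CPM in WT livers of that age. Cholangiocyte markers summed to 31.5 to 206 CPM over the 22 libraries. Macrophage markers summed to 544 to 765 CPM in KO livers of 4 weeks, against 844 to 1020 CPM in WT livers, with 1 of 12 higher, 3 lower and a median log2 fold change of -0.62. Endothelium markers summed to 332 to 396 CPM in KO livers of that age, against 452 to 548 CPM in WT livers, with 0 of 12 higher, 3 lower and a median of -0.48, and of 11 stellate cell markers 1 was higher and 2 were lower. With all livers in the test, none of these markers passed later, where 0.0275% of all genes passed at 8 weeks and 0% at 20 months. Macrophage markers had 11 of 12 log2 fold changes above 0 at 8 weeks (median 0.35) and 11 of 12 below 0 at 20 months (median -0.61). Of 19 acute-phase genes tested at 4 weeks, where 10.8% of all genes passed, 3 were higher and 4 lower in KO livers, of 20 at 8 weeks and 20 at 20 months 0 passed, with a median log2 fold change of -1.49 at 20 months, and 0 of 14 to 16 clock genes passed at any age. The part of these differences between livers in the values below was not tested, other than by leaving libraries out. In these bulk tissues, fewer cells of a type and less RNA per cell cannot be told apart.

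The promoters are shown first because some of them hold elements through which the response is known to act. RefSeq windows of 250 bases before the gene start (build GRCm38.p6) were matched by symbol for 8 of the 10 genes, all but Hyou1 and Manf. ERSE is CCAAT, then 9 bases of any kind, then CCACG. ERSE-II is ATTGG, then 1 base of any kind, then CCACG, and the UPRE core is TGACGTG. All were sought as exact letters on both strands, in windows that run to 50 bases after the start. The 4 promoters with ERSE or ERSE-II are printed 5′ to 3′ along the gene, up to the base before the start, with the fixed letters of ERSE, ERSE-II and the UPRE core in capitals. The windows are chr2:34771840-34772089 (plus strand) for Hspa5, chr10:86705445-86705694 (minus strand) for Hsp90b1, chr15:88819396-88819645 (plus strand) for Creld2 and chr8:94386179-94386428 (plus strand) for Herpud1. The GENCODE starts of Hspa5 and Hsp90b1 lie upstream of the RefSeq starts, inside these windows.
Hspa5: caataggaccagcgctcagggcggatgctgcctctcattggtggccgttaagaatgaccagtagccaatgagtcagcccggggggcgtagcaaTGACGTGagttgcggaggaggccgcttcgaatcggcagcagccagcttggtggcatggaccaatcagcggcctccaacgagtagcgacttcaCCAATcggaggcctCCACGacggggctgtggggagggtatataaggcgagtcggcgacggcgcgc
Hsp90b1: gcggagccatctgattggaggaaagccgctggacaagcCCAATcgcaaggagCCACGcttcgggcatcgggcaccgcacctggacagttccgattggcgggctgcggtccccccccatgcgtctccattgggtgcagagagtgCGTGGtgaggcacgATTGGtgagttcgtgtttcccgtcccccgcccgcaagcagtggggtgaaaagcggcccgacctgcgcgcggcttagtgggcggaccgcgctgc
Creld2: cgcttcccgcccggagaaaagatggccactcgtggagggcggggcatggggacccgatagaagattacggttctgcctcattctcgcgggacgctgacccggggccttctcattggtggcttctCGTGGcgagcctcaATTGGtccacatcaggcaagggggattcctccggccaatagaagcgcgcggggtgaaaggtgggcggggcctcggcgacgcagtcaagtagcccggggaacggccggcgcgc
Herpud1: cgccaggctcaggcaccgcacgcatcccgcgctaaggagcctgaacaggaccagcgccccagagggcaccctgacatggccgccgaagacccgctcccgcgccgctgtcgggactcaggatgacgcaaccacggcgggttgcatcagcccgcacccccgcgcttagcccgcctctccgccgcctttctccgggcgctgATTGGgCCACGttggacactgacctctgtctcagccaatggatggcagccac

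Counted from the gene start, the Hspa5 promoter held ERSE at -65 to -47 and the UPRE core at -157 to -151. Hsp90b1 held ERSE at -212 to -194 on the strand of the gene and at -107 to -89 on the other strand, where it reads CGTGG, 9 bases, ATTGG. Creld2 held it on the other strand at -126 to -108, and Herpud1 held ERSE-II at -52 to -42. ERSE was present in 39 of 32851 windows of the table (0.119%), ERSE-II in 12 (0.0365%) and the UPRE core in 661 (2.01%). The shorter pieces are common. CCAAT alone was in 37.4% of windows and in 7 of these 8, and CCACG alone in 32.8% and in 7 of these 8. The windows of Pdia4, Dnajb9, Sdf2l1 and Xbp1 held none of the 3 longer elements in these exact letters, and Xbp1 held neither short piece. CCACG is a part of ERSE and of ERSE-II, so these counts overlap. Among 20 other ER folding factors with a window, Calr, Canx, Dnajc3, Ero1b and Pdia6 held ERSE, as did the degradation factors Derl3 and Syvn1 among 16.

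**Figure D1:**
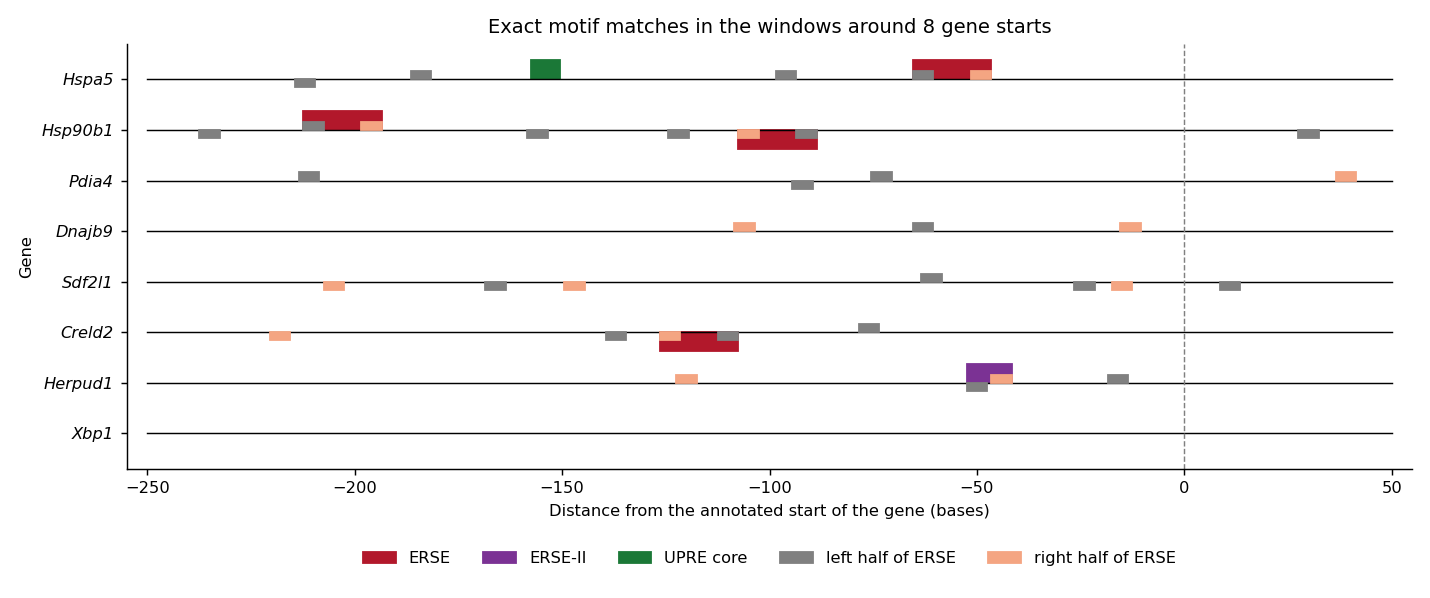
Exact matches of 5 letter patterns by distance from the annotated gene start in bases, for the 8 genes with a promoter window. Boxes above a line lie on the strand of the gene and boxes below it on the other strand. ERSE appears in Hspa5, Hsp90b1 (2 matches) and Creld2, and ERSE-II in Herpud1.

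With all livers in the test, none of the 10 genes passed between KO and WT livers at any age. The test was the quasi-likelihood test of edgeR with a Benjamini-Hochberg adjusted p under 0.05 over all genes tested. At 4 weeks, 1200 of 11144 genes tested (10.8%) passed, and 0 of the 10 did. At 8 weeks 4 of 14522 genes (0.0275%) passed and at 20 months 0 of 13966 (0%), with 0 of the 10 at both ages. The numbers at 8 weeks depended on KO libraries 3 and 4. Without them 1990 of 14364 genes (13.9%) passed, and of the 10 genes 2 did, Sdf2l1 and Creld2, both lower in KO livers. Leaving these libraries out was decided after the data were seen. At an unadjusted p under 0.05 the number was 1 of 10 at 4 weeks (3240 of all genes), 0 of 10 at 8 weeks (1517) and 4 of 10 at 20 months (772). The median log2 fold change of the 10 genes was -0.14 at 4 weeks, 0.09 at 8 weeks and -0.53 at 20 months, against 0.005, 0.019 and -0.003 for all genes tested. Single libraries set much of these medians. At 4 weeks the median was 0.29 without WT library 1 and 0.03 without KO library 2, and -0.28 to -0.07 without any other single library. At 20 months it was -0.23 without WT library 2, and at 8 weeks 0.03 without KO libraries 3 and 4. Without those 2 libraries the 8-week log2 fold change was 0.04 for Xbp1, 0.13 for Manf, 0.03 for Dnajb9, 0.02 for Pdia4 and -0.19 for Hyou1, none of which passed. The ranges of KO and WT libraries lay apart for Creld2 at 4 weeks and for Hsp90b1 at 20 months, and overlapped in every other combination of gene and age. Ranges lay apart for 35.4% of all genes tested at 4 weeks, 2.34% at 8 weeks and 10.3% at 20 months. In DESeq2, 1 of the 10 genes passed at 4 weeks (Creld2, where 14.1% of all genes did) and 0 at the later ages (0.741% and 0.373%).

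**Figure D2:**
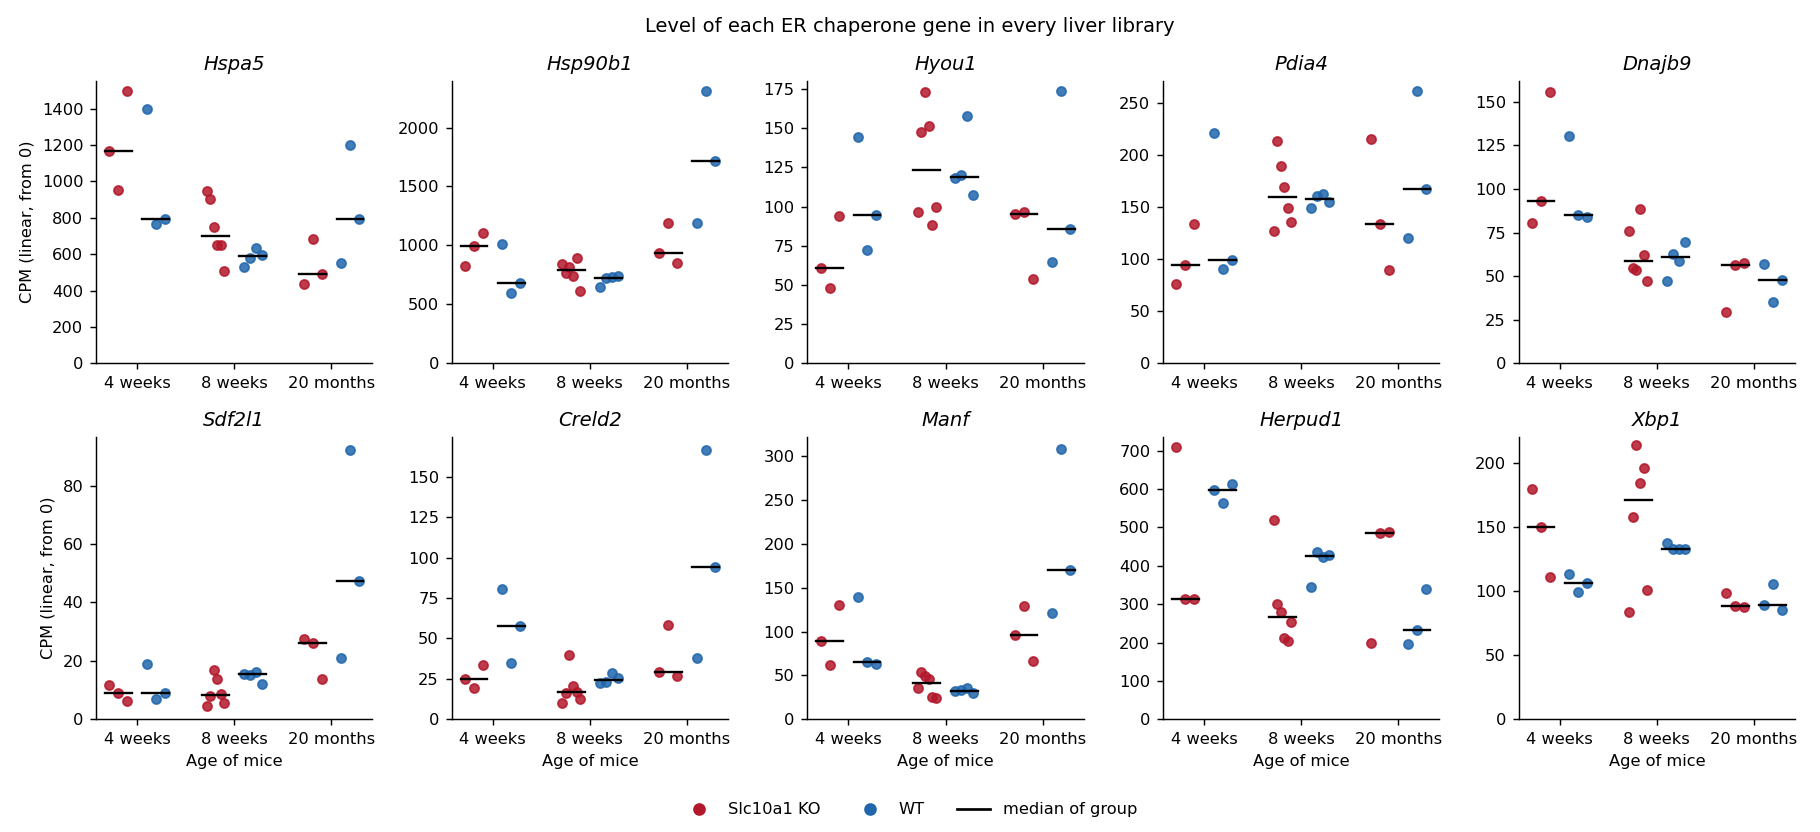
CPM on a linear axis from 0 for the 10 genes, one point per liver, with KO left of WT at each age and a line at the group median. The KO points lie below all WT points for Creld2 at 4 weeks and for Hsp90b1 at 20 months. The WT livers of 8 weeks lie close together for most genes.

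Hspa5 (chr2:34771970-34777547, plus strand, Ensembl gene ENSMUSG00000026864) encodes BiP, the HSP70 chaperone of the ER lumen that holds the sensors inactive. At 4 weeks it was at 1166, 951 and 1498 CPM in KO livers, against 1395, 767 and 791 CPM in WT livers. WT library 1 lay above 2 of the 3 KO libraries and the other WT libraries below all of them (log2 fold change 0.29, SE 0.31, adjusted p = 0.573). Without the KO and the WT library high in Arntl it was 0.67 (SE 0.23, adjusted p = 0.0630). The fit without them, chosen after the data were seen, kept KO libraries 2 and 3 and WT libraries 2 and 3. It left out the highest WT value, 1395 CPM. At 8 weeks the KO livers ran from 507 to 949 CPM with a median of 701 CPM, against 530, 579, 636 and 597 CPM in WT livers. Of the 6 KO libraries, 5 lay above all WT libraries and 1 below them (0.34, SE 0.17, adjusted p = 0.494). With libraries scaled by their totals alone, KO libraries 4 and 5 lay at 681 and 668 CPM, below the 683 CPM of WT library 3. The KO livers highest in Hspa5, at 949 and 902 CPM, were those with high Arntl, and without them the log2 fold change was 0.13 (SE 0.12, adjusted p = 0.819). At 20 months the order of the means was the opposite, with 433, 685 and 490 CPM in KO livers against 551, 1200 and 793 CPM in WT livers. The ranges overlapped through KO library 2 and WT library 1 (-0.66, SE 0.35, adjusted p = 0.821), and without WT library 2 the change was -0.33.

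Hsp90b1 (chr10:86690209-86705509, minus strand) encodes GRP94, the HSP90 chaperone of the ER. At 4 weeks it was at 827, 994 and 1109 CPM in KO livers, against 1015, 597 and 677 CPM in WT livers (0.36, SE 0.27, adjusted p = 0.417). Without the KO and the WT library high in Arntl the change was 0.74 (SE 0.19, adjusted p = 0.0208), past the threshold as for 23.5% of all genes then tested, while the adjusted p over the 13 alternatives ran from 0.0208 to 0.765. The fit without them, chosen after the data were seen, kept KO libraries 2 and 3 and WT libraries 2 and 3. It left out the lowest KO value, 827 CPM, and the highest WT value, 1015 CPM. At 8 weeks the KO livers ran from 617 to 897 CPM with a median of 791 CPM, against 651, 725, 729 and 741 CPM in WT livers. Here 5 of 6 KO libraries lay above all WT libraries (0.14, SE 0.12, adjusted p = 0.616), KO library 4 only barely, with 742.3 against 741.3 CPM. With libraries scaled by their totals alone, KO libraries 1 and 4 lay at 747 and 778 CPM, below the 784 CPM of WT library 3. At 20 months it was at 934, 1189 and 854 CPM in KO livers, against 1194, 2309 and 1720 CPM in WT livers. All 3 KO libraries lay below all WT libraries, the nearest pair being 1189 and 1194 CPM. The difference had a 95% interval of -1.57 to -0.05 and did not pass over all genes (-0.81, SE 0.32, adjusted p = 0.821). It was -0.79 without the pair of WT libraries high in Saa1, which left WT library 3 as the only WT liver. The gene overlaps 1810014B01Rik on the opposite strand and Gm15344 and Gm25745 on the same strand, which makes its counts less certain. The strand setting of the counting is not stated, so reads of the opposite-strand overlap cannot be told apart.

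Hyou1 (chr9:44379490-44392369, plus strand) encodes ORP150, a large relative of HSP70 that acts as a nucleotide exchange factor for BiP. In mice of 4 weeks it stood at 60.8, 47.8 and 94.1 CPM in KO livers, against 144, 72.2 and 94.3 CPM in WT livers. Here 2 of 3 KO libraries lay below all WT libraries (-0.62, SE 0.32, adjusted p = 0.241). KO livers of 8 weeks ran from 88.1 to 173 CPM with a median of 123 CPM, on both sides of the WT values of 118, 120, 158 and 108 CPM (0.01, SE 0.20). Old mice of 20 months had 95.3, 96.4 and 53.7 CPM in KO livers, against 64.7, 174 and 85.4 CPM in WT livers, with wide overlap (-0.39, SE 0.41).

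Pdia4 (chr6:47796141-47813430, minus strand) encodes ERp72, which forms and rearranges disulfide bonds. The 4-week level was 76.7, 94.5 and 134 CPM in KO livers, against 221, 90.9 and 98.8 CPM in WT livers, so the WT mean rested on library 1 (-0.43, SE 0.37, adjusted p = 0.475). Without that library the log2 fold change was 0.11. Among mice of 8 weeks, KO livers ran from 127 to 213 CPM, with 3 above and 3 below the WT group of 149 to 163 CPM (0.08, SE 0.15). Levels at 20 months were 216, 134 and 89.5 CPM in KO livers, against 120, 262 and 167 CPM in WT livers (-0.32, SE 0.40), without order between the groups.

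Dnajb9 (chr12:44205559-44210326, minus strand) encodes ERdj4, a J-domain co-chaperone of BiP that also helps return IRE1 to its inactive state. It was at 80.5, 93.0 and 156 CPM in KO livers and 130, 85 and 84 CPM in WT livers at 4 weeks. At 8 weeks KO livers ran from 47.0 to 88.8 CPM and WT livers from 47.4 to 69.4 CPM, and at 20 months KO livers from 29.6 to 57.7 CPM and WT livers from 35.3 to 57.2 CPM. The ranges overlapped at each age, and the log2 fold changes were 0.14, 0.10 and 0.03 (SE 0.29, 0.17 and 0.30).

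Sdf2l1 (chr16:17130138-17132383, minus strand) encodes a small lumenal partner of J-domain proteins. Levels in 4-week mice were 11.8, 9.01 and 6.2 CPM in KO livers, against 18.9, 6.76 and 9.0 CPM in WT livers (-0.34, SE 0.41, adjusted p = 0.632). In the 8-week groups KO livers ran from 4.53 to 16.7 CPM with a median of 8.13 CPM, against 15.6, 15.1, 16.2 and 12 CPM in WT livers. Of the 6 KO libraries, 4 lay below all WT libraries (-0.63, SE 0.32, adjusted p = 0.494). These were libraries 1, 2, 5 and 6, at 4.53, 7.79, 8.47 and 5.55 CPM, the KO livers with hepatocyte, macrophage and stellate cell marker sums above all WT livers, while libraries 3 and 4 were at 16.7 and 13.9 CPM. Without libraries 3 and 4 the log2 fold change was -1.13 (SE 0.21, adjusted p = 0.0107), past the threshold, and over 18 alternatives the adjusted p ran from 0.0107 to 0.788. The part of the cells behind these markers in the Sdf2l1 level was not tested. In mice of 20 months it stood at 27.4, 26.0 and 13.9 CPM in KO livers, against 20.9, 92.4 and 47.3 CPM in WT livers. The WT values spread 4.43-fold, with library 1 inside the KO range (-1.24, SE 0.53, adjusted p = 0.821), and without WT library 2 the change was -0.60.

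Creld2 (chr15:88819646-88826683, plus strand) encodes an ER protein with disulfide isomerase activity that is strongly induced by ER stress. At 4 weeks it was at 25.1, 19.3 and 33.7 CPM in KO livers, against 80.5, 34.9 and 57.8 CPM in WT livers. All 3 KO libraries lay below all WT libraries, with 33.7 and 34.9 CPM as the nearest pair. The log2 fold change was -1.15 (SE 0.33, 95% interval -1.90 to -0.40) and the adjusted p in edgeR was 0.0577, while DESeq2 gave -1.14 with an adjusted p of 0.0178. Over 13 alternatives the adjusted p ran from 0.00101 (no filter) to 0.171, and leaving out 1 library gave log2 fold changes of -1.42 to -0.83 and no adjusted p under 0.0578. At 8 weeks KO livers ran from 9.91 to 39.7 CPM with a median of 16.6 CPM, against 22.2, 22.9, 28.7 and 25.5 CPM in WT livers. There, 5 of 6 KO libraries lay below all WT libraries and KO library 3 above them (-0.36, SE 0.32, adjusted p = 0.642). Without KO libraries 3 and 4 the log2 fold change was -0.81 (SE 0.18, adjusted p = 0.0216), past the threshold, and over 18 alternatives the adjusted p ran from 0.0216 to 0.911. At 20 months it was at 29.1, 58.6 and 26.7 CPM in KO livers, against 38.1, 167 and 94.3 CPM in WT livers. KO library 2 lay above WT library 1 there (-1.38, SE 0.54, adjusted p = 0.821). The change was -0.79 without WT library 2. Without WT libraries 1 and 2, the pair high in Saa1, it was -1.31, with WT library 3 as the only WT liver left.

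Manf (chr9:106838312-106891979, minus strand) encodes a secreted protein of the ER lumen that binds BiP. Its level in mice of 4 weeks was 89.4, 61.4 and 130 CPM in KO livers, against 139, 65.4 and 63.5 CPM in WT livers (0.07, SE 0.37, adjusted p = 0.926). The 8-week KO livers ran from 24.6 to 54.3 CPM with a median of 40.8 CPM, with 4 above and 2 below the WT values of 32.2, 33.0, 35.6 and 29.5 CPM (0.27, SE 0.22, adjusted p = 0.612). The 20-month level was 96.6, 129 and 66.2 CPM in KO livers, against 121, 308 and 170 CPM in WT livers. KO library 2 overlapped WT library 1 alone (-1.03, SE 0.40, adjusted p = 0.821), and without WT library 2 the change was -0.58. The annotated gene spans 53668 bases and overlaps Dcaf1, Gm37612 and 4930524O07Rik on the opposite strand and Rbm15b on the same strand, which makes its counts less certain.

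Herpud1 (chr8:94386438-94395377, plus strand) encodes HERP, which gathers the ubiquitin ligase complex of ER-associated degradation. Young KO livers of 4 weeks had 711, 313 and 313 CPM, against 598, 563 and 613 CPM in WT livers of that age. KO library 1 lay above all WT libraries and the other 2 below them (-0.40, SE 0.34, adjusted p = 0.463). Without KO library 1 the log2 fold change was -0.90 with an adjusted p of 0.0107 in edgeR, where 2012 of 11439 genes passed. At 8 weeks KO library 1 was again the highest, at 521 CPM, the other 5 KO libraries lay at 203 to 301 CPM, and WT livers were at 346, 437, 422 and 429 CPM. So 5 of 6 KO libraries lay below all WT libraries (-0.46, SE 0.24, adjusted p = 0.500). KO library 1 at both ages was among the libraries high in Arntl, as was KO library 2 of 8 weeks with 301 CPM. Without the libraries high in Arntl the log2 fold change at 4 weeks was -0.89 (SE 0.17, adjusted p = 0.00825), where 23.5% of all genes passed. That fit kept KO libraries 2 and 3 and WT libraries 2 and 3. At 8 weeks the log2 fold change was -0.78 (SE 0.13, adjusted p = 0.352), where 0.0211% of all genes passed. Over the 13 alternatives at 4 weeks the adjusted p of Herpud1 ran from 0.00825 to 0.786. WT library 1 of 4 weeks, also high in Arntl, had 598 CPM, between the other WT libraries. At 20 months the means had the opposite order, with 198, 486 and 489 CPM in KO livers against 197, 234 and 339 CPM in WT livers (0.61, SE 0.39, adjusted p = 0.823). KO library 1 there had 14.72% of its reads outside genes, against 7.0% to 8.52% in the WT libraries of that age, and the part of this in its low Herpud1 value was not tested. Gm15890 overlaps the gene on the opposite strand.

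Xbp1 (chr11:5520659-5525893, plus strand) encodes the factor itself. At 4 weeks it was at 180, 150 and 111 CPM in KO livers, against 114, 99.6 and 107 CPM in WT livers, with 2 of 3 KO libraries above all WT libraries (0.47, SE 0.22, adjusted p = 0.195). At 8 weeks KO livers ran from 83.7 to 214 CPM with a median of 171 CPM, against 137, 133, 133 and 133 CPM in WT livers. Here 4 KO libraries lay above and 2 below a WT group whose highest and lowest livers differed 1.03-fold (0.23, SE 0.24, adjusted p = 0.697). At 20 months it was at 98.4, 88.5 and 87.5 CPM in KO livers, against 89.3, 106 and 84.9 CPM in WT livers (-0.03, SE 0.17), with every KO library inside the WT range.

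**Figure D3:**
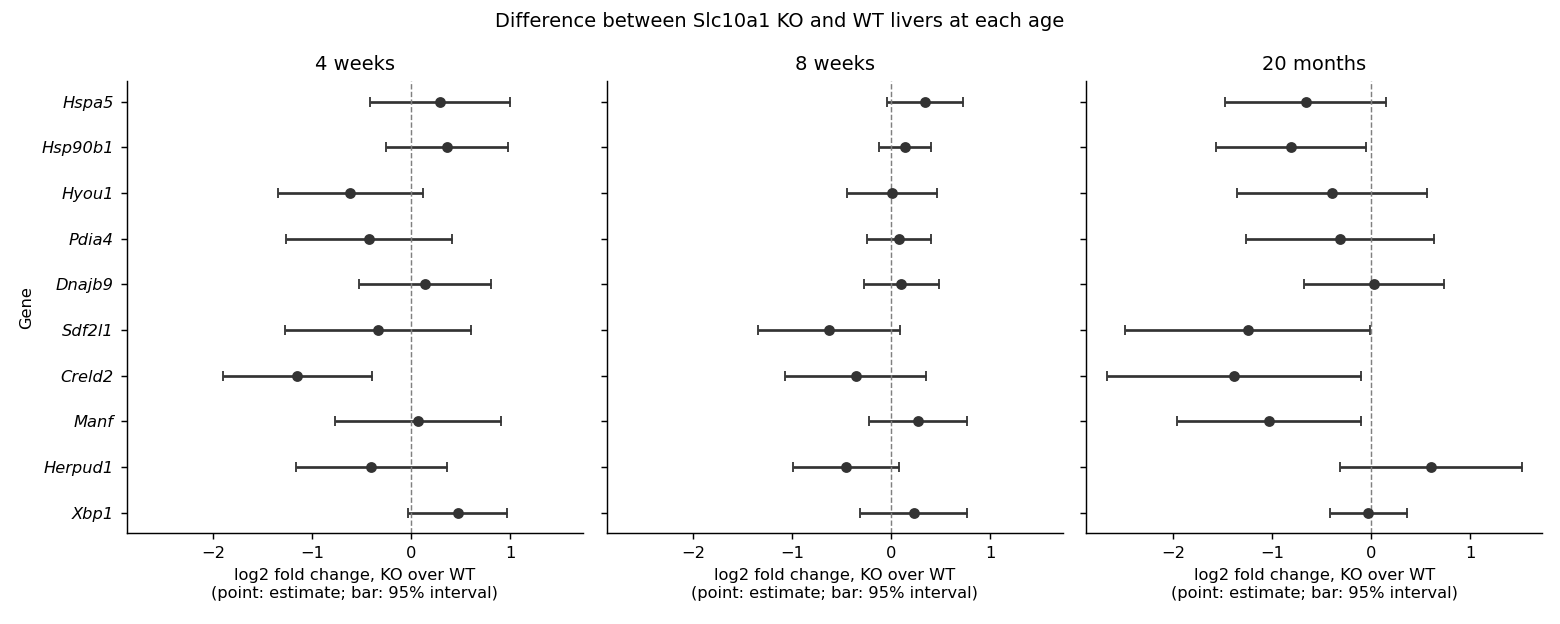
Log2 fold change of KO over WT livers at each age, with points for the edgeR estimate and bars for its 95% interval. At 4 weeks the interval of Creld2 lies below 0, and at 20 months those of Hsp90b1, Sdf2l1, Creld2 and Manf do, before any adjustment for the number of genes tested.

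Whether the KO effect differed between ages was tested in a fit of all 22 libraries. The KO effect of 8 weeks against 4 weeks differed for 52 of 15877 genes (0.328%), that of 20 months against 8 weeks for 0 (0%, with 1798 at an unadjusted p under 0.05), and that of 20 months against 4 weeks for 718 (4.52%). None of the 10 genes passed in any of the 3. Without KO libraries 3 and 4 of 8 weeks the numbers were 103 of 15741 genes (0.654%), 623 (3.96%) and 1188 (7.55%), with 0, 0 and 1 of the 10 genes (Hsp90b1). In DESeq2 the shares were 3.01%, 1.09% and 11.4%, also with 0, 0 and 1 of the 10 genes. For 20 months against 8 weeks, 517 genes passed without WT library 3 of 20 months. These comparisons share libraries, so they are not independent of each other or of the tests within ages. The smallest adjusted p was that of Hsp90b1 for 20 months against 4 weeks, with a log2 difference in effect of -1.17 (SE 0.34, adjusted p = 0.0510 in edgeR and 0.00597 in DESeq2). Over 26 alternatives its adjusted p ran from 0.00597 to 0.128 and was under the threshold in 7, among them that without KO libraries 3 and 4 of 8 weeks (0.0469). Of the 7, 4 left out 1 library, with adjusted p values of 0.0451 without KO library 1 of 4 weeks, 0.0247 without WT library 1 of 4 weeks, 0.0385 without KO library 1 of 8 weeks and 0.0371 without WT library 1 of 20 months. For 20 months against 8 weeks the difference was -0.94 for Hsp90b1 (SE 0.30, adjusted p = 0.263), -1.30 for Manf (SE 0.49, adjusted p = 0.323), -0.99 for Hspa5 (SE 0.38, adjusted p = 0.339) and 1.08 for Herpud1 (SE 0.47, adjusted p = 0.396). Herpud1 therefore had the sign opposite to Hsp90b1, Manf and Hspa5 in that comparison, where none of these differences passed. The signs of Dnajb9, Sdf2l1 and Hyou1 there turned in fits that left out 1 library. For 8 weeks against 4 weeks no gene of the 10 reached an unadjusted p of 0.05.

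Per kilobase of exon, Hsp90b1, Hspa5 and Herpud1 were the 3 highest of the 10 in all 6 groups by their medians. Hsp90b1 had a median of 232 CPM per kilobase in KO livers and 427 in WT livers at 20 months. Hyou1 or Sdf2l1 was the lowest in 5 groups, and Manf in WT livers of 8 weeks. Ordered by group medians of CPM, WT livers of 20 months were the highest group for Hsp90b1, Pdia4, Sdf2l1, Creld2 and Manf, and KO livers of 4 weeks for Hspa5 and Dnajb9. Of the 50 neighbouring steps in these orders, 43 joined groups whose ranges overlapped and 7 did not (5 when libraries were scaled by their totals alone). The share of such steps over all genes was not counted, so the steps are a description and no result about these genes. The 7 steps were WT of 20 months over KO of 4 weeks for Hsp90b1, WT of 4 weeks over WT of 8 weeks for Dnajb9, WT of 8 weeks over KO of 4 weeks for Sdf2l1, WT of 4 weeks over KO of 8 weeks for Manf, WT of 4 weeks over KO of 20 months for Herpud1, WT of 8 weeks over WT of 4 weeks for Xbp1, and WT of 8 weeks over KO of 20 months for Hyou1.

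Livers of the same group differed from each other, and several of the 10 genes differed together. WT library 1 of 4 weeks was the highest of its group in 9 of the 10 genes, and WT library 2 of 20 months in 8 of 10. WT library 1 of 20 months was the lowest of its group in 8 of 10. WT libraries 1 and 2 of 20 months were the pair high in Saa1, and the part of this in their levels was not tested. KO library 6 of 8 weeks was below its group mean in all 10 genes, with a mean deviation of -0.42 on the log2 scale. The same counts were not taken over all genes, so shifts of a whole library and shifts of these genes cannot be told apart. In WT livers of 8 weeks the highest liver was at most 1.47 times the lowest for any of the 10 genes, while the most variable gene spread 2.27-fold to 4.43-fold in the other 5 groups.

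**Figure D4:**
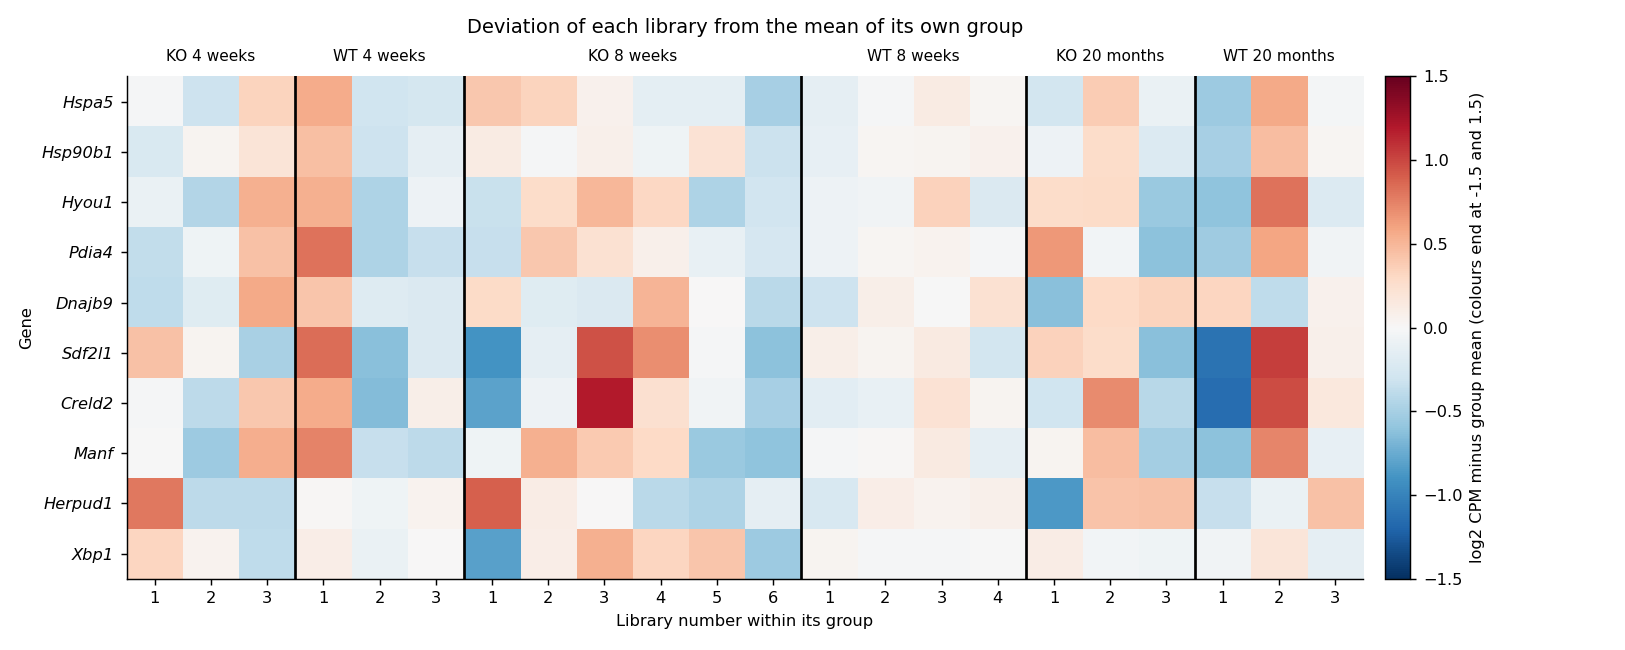
Log2 CPM of each gene in each library minus the mean of its own group, with KO left of WT at each age and red for values above the mean. WT library 1 of 4 weeks lies above the mean in all 10 genes, but only faintly in Herpud1 (0.02) and Xbp1 (0.09). WT library 1 of 20 months is mostly blue. Dnajb9, Herpud1 and Xbp1 do not follow most of the other rows in several libraries.

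With the group means removed, the deviation of Hspa5 was compared with that of the other 9 genes over the 22 libraries. Hsp90b1 had a Pearson r of 0.84 and a Spearman rho of 0.78, and Manf 0.84 and 0.78. Both had an adjusted p of 0.00553 for r and 0.00846 for rho in a permutation test within groups, adjusted over 9 relations. Hyou1 followed with r of 0.68 and rho of 0.65 (adjusted permutation p = 0.0343 and 0.0364). Creld2 had r of 0.62 and rho of 0.62, with adjusted permutation p values of 0.0618 and 0.0426, and Pdia4 0.58 and 0.54 (0.0830 and 0.0867). Sdf2l1 (r 0.42, rho 0.37), Herpud1 (0.39, 0.47), Dnajb9 (0.30, 0.27) and Xbp1 (-0.04, 0.06) did not pass, with adjusted permutation p values of 0.165 to 0.891 for r and 0.0867 to 0.820 for rho. Without the libraries farthest from the median of Hspa5, WT library 2 of 20 months and WT library 1 of 4 weeks, r was 0.75 for Hsp90b1, 0.77 for Manf, 0.54 for Hyou1, 0.50 for Creld2 and 0.37 for Pdia4. Without KO libraries 3 and 4 of 8 weeks, and with the group means taken again, r was 0.84 for Hsp90b1, 0.90 for Manf, 0.75 for Hyou1, 0.74 for Creld2 and 0.53 for Sdf2l1 over 20 libraries.

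Within each age r rested on 6 or 10 libraries, and differences in r between ages were not tested. For Hsp90b1, r was 0.83, 0.62 and 0.96 at 4 weeks, 8 weeks and 20 months, and for Manf 0.99, 0.61 and 0.89. For Creld2 it was 0.88, -0.003 and 0.97. Herpud1 had its highest r with Hspa5 at 8 weeks (0.72) and -0.01 and 0.43 at the other ages. Over all 45 pairs of the 10 genes, r lay above 0 for 36 with a median of 0.42, the highest being 0.92 for Manf and Hyou1 and the lowest -0.39 for Pdia4 and Herpud1. The median r with the other 9 genes was 0.02 for Dnajb9, 0.02 for Herpud1 and 0.21 for Xbp1, against 0.58 to 0.69 for the rest. For Xbp1, r ran from -0.30 with Herpud1 to 0.70 with Sdf2l1. Scaling of a library moves all its genes together, so such correlations share the error of the scaling factor. Pairs of other genes were not counted beside these 45.

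**Figure D5:**
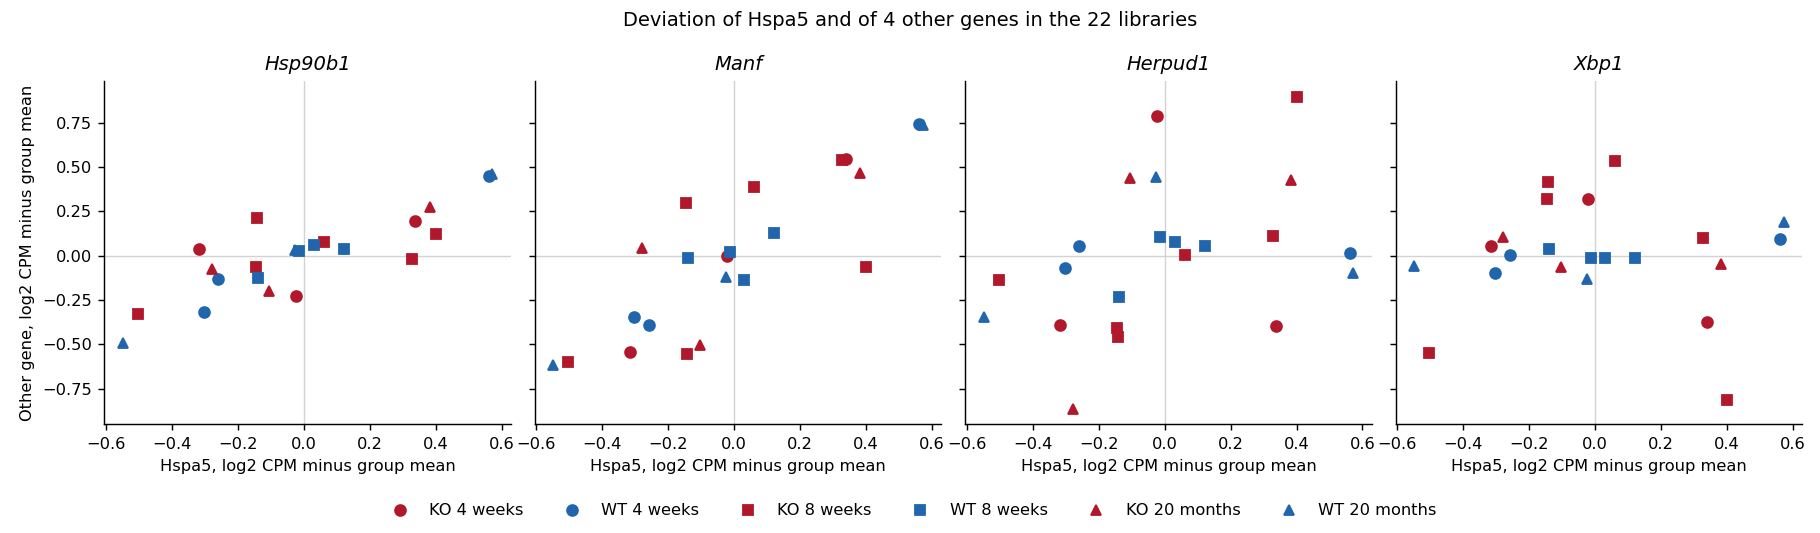
Deviation of Hspa5 (horizontal) and of Hsp90b1, Manf, Herpud1 or Xbp1 (vertical) from the group mean, in log2 CPM, one point per liver with colour for genotype and shape for age. Hsp90b1 and Manf lie along a rising band (r 0.84 each), and Xbp1 forms a cloud (r -0.04).

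Among 10583 other genes, those whose deviations were most like the mean of the 10 over the 22 libraries were Dnajb11 (r 0.90), a J-domain co-chaperone of BiP, Calr (0.88), the lectin chaperone calreticulin, Slc35b1 (0.80), an ER nucleotide transporter, Pdia3 (0.80) and Pdia6 (0.79), disulfide isomerases. These r values are a description and carry no test. In the RefSeq windows, Calr and Pdia6 held ERSE and Dnajb11 held ERSE-II, while Slc35b1 and Pdia3 were not among the genes with either element. The part of these elements in the r values was not tested.

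The rest of the pathway was followed in lists of genes, beside the 10.8% of all genes that passed at 4 weeks. Of 22 other ER folding factors, 0 were higher and 1 was lower in KO livers at 4 weeks, namely Ero1lb, an oxidase of disulfide isomerases (log2 fold change -0.77, SE 0.20, adjusted p = 0.042 in edgeR). Of 18 genes of ER-associated degradation, 27 of ER translocation and export and 11 sensors and regulators, none passed at 4 weeks, the smallest adjusted p being 0.0539 for Srp19, a signal recognition particle subunit (0.66). Of 14 genes of the PERK and ATF4 arm, 2 were higher, which is near the share over all genes. These were Atf4 (1.00, SE 0.23, adjusted p = 0.0294 in edgeR) and its target Asns, asparagine synthetase, at 38.2, 37.3 and 26.6 CPM in KO livers against 3.81, 5.51 and 5.94 CPM in WT livers (2.74, SE 0.26, adjusted p = 0.000883 in edgeR). The median log2 fold change was -0.10 for the other ER folding factors and 0.23 for the PERK and ATF4 arm. With all livers in the test, no gene of these lists passed at 8 weeks or at 20 months, where 0.0275% and 0% of all genes did. At 20 months the median of the other ER folding factors was -0.28, with 3 of 22 above 0, and the smallest p was that of Dnajc10, a disulfide reductase with a J domain (-0.61, SE 0.20, adjusted p = 0.821 in edgeR).

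Chaperones of the cytosol, which answer to heat shock factor rather than to the ER, were counted beside the ER chaperones. At 4 weeks 7 of 13 cytosolic heat shock genes were lower in KO livers and 0 higher, with a median of -1.15, where 10.8% of all genes passed in either direction. Hsph1, an HSP110 chaperone, was at 16.9, 16.8 and 35.2 CPM in KO livers against 249.6, 141 and 148 CPM in WT livers (-2.97, SE 0.37, adjusted p = 0.00365 in edgeR). Hspa1b, the inducible HSP70, was at 0.348, 1.89 and 1.33 CPM in KO livers against 46.3, 9.25 and 15.4 CPM in WT livers (-4.33, SE 0.75, adjusted p = 0.0124 in edgeR). With all livers in the test, 0 of 15 passed at 8 weeks and 0 of 15 at 20 months, where 0.0275% and 0% of all genes did. The KO effect of 20 months against 4 weeks had a difference above 0 for 14 of 16 of them, and 4 passed, namely Dnajb1, Stip1, Hspa1b and Hsph1, all with the effect higher at 20 months. Over all genes 318 of 15877 passed with a higher and 400 with a lower effect at 20 months (4.52% in all). In the ER lists 0 passed with a higher effect. Those that passed with a lower effect were 1 of 22 other folding factors (Dnajc10), 2 of 19 degradation factors (Selenos and Selenok), 2 of 27 of translocation and export (Srp19 and Spcs3), 0 of 11 sensors and regulators and 1 of 15 of the PERK and ATF4 arm (Asns). Of the 10 ER chaperone genes 0 passed.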

How the data were processed

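Per the labels, RNA came from frozen mouse livers, was selected on poly(A) beads and sequenced on an Illumina HiSeq-2500 instrument. The deposited values are raw counts per Ensembl gene, and per the submitters' processing notes the tools were HISAT2 2.0.4 and HTSeq 0.6.1p1 with build GRCm38. Strand setting, annotation release and read filters are not given in the sources used here. Symbols and coordinates came from GENCODE M21. No 2 libraries of a group agreed within sampling noise (lowest chi-square per degree of freedom 8.34).

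Each age was fitted alone to compare KO with WT livers in edgeR 4.0.16 (R 4.3.3): filterByExpr, TMM factors, 2-sided quasi-likelihood F-test, Benjamini-Hochberg adjustment over all genes tested and a threshold of 0.05. A fit of all 22 libraries compared the KO effect between ages. CPM used TMM factors of all libraries, and log2 CPM a prior count of 2. Correlations used 100000 permutations within groups. The scripts were tested on simulated counts. Alternatives were RLE and upper-quartile factors, no filter, DESeq2 1.42.0, a replicate block and leaving out libraries. Every one of the 10 genes is named. From other lists the text names up to 4 genes past the threshold with the smallest adjusted p, or else the smallest p, and the 5 genes most like the mean of the 10. The genes and lists were chosen with earlier results of these data known. Samples were grouped by the genotype and age in the labels, and the depth of each library is given by its assigned reads.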

Additional observations from a re-analysis of the deposited data

Results flagged for a closer look

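The 10 genes were checked for a liver far from the others of its group in the groups of 4 and 6 livers, 20 combinations in all, of which 4 met Dixon's criterion at its 95% value. Chance flags about 1 in 20 groups. Creld2 was at 39.7 CPM in KO library 3 of 8 weeks, with a gap to the next liver of 0.645 of the group's range, in a library whose marker sums differ from those of most KO livers of its age. Herpud1 was at 520.5 CPM in KO library 1 of 8 weeks (0.690), a library high in Arntl. Herpud1 was at 345.6 CPM in WT library 1 of 8 weeks, below the other 3 (0.836). Xbp1 was at 137.3 CPM in the same WT library, above the other 3 (0.98), in a group whose whole range was 1.03-fold. The 4-week and 20-month groups hold 3 livers each and were not checked.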

How the results depend on the processing

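At 4 weeks the genes passing numbered 1200, 2048 without a filter, 537 with a replicate block and 2652 without the 2 libraries high in Arntl, and 184 (without WT library 3) to 2012 (without KO library 1) leaving out 1 library. Of the 10 genes 0 passed, 1 in DESeq2 and 1 without a filter (Creld2 both times), 2 without the libraries high in Arntl (Hsp90b1 and Herpud1) and 0 to 1 leaving out 1 library (Herpud1 without KO library 1). At 8 weeks 4 genes passed, 1990 without KO libraries 3 and 4, 107 in DESeq2, 0 with the block and 1 (without WT library 1, among others) to 5 leaving out 1 library. At 20 months 0 passed, 43 in DESeq2 and 0 to 71 (without WT library 3) leaving out 1 library, and of the 10 genes 2 passed at 8 weeks without KO libraries 3 and 4 (Sdf2l1 and Creld2) and 0 under every other alternative at 8 weeks and every alternative at 20 months. The KO effect differed between 8 and 4 weeks for 52 genes, 103 without KO libraries 3 and 4 of 8 weeks, 30 with RLE factors, 18 without a filter, 376 in DESeq2 and 8 (without WT library 2 or 4 of 8 weeks) to 270 (without KO library 1 of 8 weeks) leaving out 1 library. Between 20 months and 8 weeks it was 0, 623 without those libraries, 14 without a filter, 163 in DESeq2 and 0 to 517 (without WT library 3 of 20 months). Between 20 months and 4 weeks it was 718, 1188 without those libraries, 404 without a filter, 1521 in DESeq2 and 164 (without WT library 3 of 4 weeks) to 1405 (without KO library 1 of 8 weeks), with Hsp90b1 passing without those libraries, with RLE factors and in DESeq2 (1 of 10 each, 0 to 1 leaving out 1 library). The replicate numbers were not used as pairs in the main fits. Correlations of same-numbered deviations were -0.041, -0.008 and 0.026 at 4 weeks and 0.009, -0.137, 0.074 and -0.285 at 8 weeks. At 20 months they were 0.4, 0.068 and 0.393. Those of differently numbered libraries ran from -0.083 to 0.079, from -0.195 to 0.23 and from -0.437 to 0.238 at the 3 ages. The 20-month values do not settle whether the numbers pair the livers of that age. The block changed no call among the 10 genes. Log2 changes that turned sign were Pdia4 at 4 weeks (0.288 without the libraries high in Arntl), Xbp1 at 20 months (0.1061 without those high in Saa1) and the 8 against 4 weeks effect of Hspa5 (-0.0134 with RLE factors, -0.0135 in DESeq2), and, without KO libraries 3 and 4 of 8 weeks, Hyou1 at 8 weeks (-0.1936), the 8 against 4 weeks effect of Herpud1 (0.0276) and the 20 months against 8 weeks effect of Dnajb9 (0.0530), and the Spearman rho of Hspa5 and Xbp1 was 0.0593. Without the libraries high in Saa1, WT library 3 was the only WT liver of 20 months left. Leaving out 1 library turned the sign of other log2 changes, over these ranges. At 4 weeks these were Pdia4 -0.659 to 0.106, Dnajb9 -0.18 to 0.378, Sdf2l1 -0.616 to 0.209 and Manf -0.224 to 0.544. At 8 weeks these were Pdia4 -0.0258 to 0.141, Dnajb9 -0.0066 to 0.18 and Hyou1 -0.11 to 0.129. At 20 months these were Pdia4 -0.715 to 0.0264, Dnajb9 -0.137 to 0.283, Xbp1 -0.0917 to 0.0679 and Hyou1 -0.655 to 0.124. In the KO effect of 8 against 4 weeks these were Hspa5 -0.295 to 0.228, Pdia4 -0.0271 to 0.75, Dnajb9 -0.271 to 0.306, Manf -0.268 to 0.515 and Herpud1 -0.302 to 0.456. In that of 20 months against 8 weeks these were Dnajb9 -0.235 to 0.186, Sdf2l1 -1.01 to 0.0269 and Hyou1 -0.666 to 0.117. In that of 20 months against 4 weeks these were Pdia4 -0.42 to 0.457, Dnajb9 -0.337 to 0.246, Creld2 -0.681 to 0.363 and Hyou1 -0.0933 to 0.743. None of these had passed. The alternatives without libraries high in Arntl or Saa1 or without KO libraries 3 and 4 of 8 weeks, and those that leave out 1 library in the KO effect between ages, were chosen after seeing the data. The cause was not tested. The 4-week libraries were the shallowest, at 5496425 to 6956124 counts, and the part of depth in the numbers of genes passing was not tested.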
